A study of Mus musculus with 24 samples.

Results

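The genes described here are 9 listed genes of mechanical strain and Z-disc repair in skeletal muscle: Ankrd1, Ankrd2, Csrp3, Xirp1, Xirp2, Flnc, Nrap, Myot and Actc1. They were chosen by name, with earlier results of these data known, from the 54532 genes counted in each of 24 RNA sequencing libraries. All 9 had enough counts to be tested in every comparison. The libraries came from the left gastrocnemius, a fast calf muscle, of wild-type (WT) C57/BL6 mice, in 6 groups of 4 separately labelled samples, 3 groups per sex: sedentary control, sedentary pain and active pain. In controls, which were sedentary, saline at pH 7.2 was injected 2 times into the muscle with 5 days between. For sedentary pain the injected solution was acid, at pH 5.0, on the same schedule, and the muscle was made to contract electrically for 6 min just before the second injection. Active pain animals had running wheels for 8 weeks and then went through the same acid and contraction protocol. All samples carry a time of 24 h. By the labels, active and sedentary pain differ only in running. The labels used here hold no animals with acid or contraction alone, so the parts of those 2 cannot be told apart, and no running animals without pain.

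The Z-disc is the protein lattice at which the thin filaments of neighbouring sarcomeres are anchored, and it carries much of the force along a muscle fibre. Several of its proteins also act as sensors of stretch or as a repair crew: damaged filamin is cleared by chaperones and replaced, Xin proteins gather at injured sites, and ankyrin repeat proteins move between the sarcomere and the nucleus. Eccentric or forceful contraction is a classical stimulus for these genes in skeletal muscle.

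In females, Ankrd1 rose about 25.3-fold in sedentary pain, Flnc 2.20-fold and Xirp1 2.097-fold, while Xirp2, the close relative of Xirp1, fell. Over 24 alternative analyses the call was lost in 1 for Ankrd1, 2 for Flnc, 13 for Xirp1 and 12 for Xirp2, which turned in sign in 1 more. In active pain females none of the 9 genes passed the same test against controls, nor did any of all genes (0%). Ankrd1 and Xirp1 were lower there than in sedentary pain, calls that were lost in 8 and 19 of 24 alternatives. In males none of the 9, and none of all genes (0%), passed the test in any of the 3 comparisons, and the highest pain values of Ankrd1, Xirp1 and Flnc came from 2 animals. Apart from pain, Actc1 stood 4.77-fold lower in male than in female controls.

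Short promoter stretches of the genes with the clearest differences are shown because each holds a motif of a muscle or strain-related transcription factor. They are from RefSeq, build GRCm38.p6, and the table used here held promoters for 7 of the 9 genes. Each runs 5′ to 3′ along the gene's strand, with the motif in capitals. M-CAT elements, which TEAD factors bind, were searched as CATTCC on both strands, so that GGAATG is the same motif read on the other strand. The CArG box is the element of serum response factor (SRF), and the MEF2 site that of the MEF2 factors. The E-box (CANNTG), the AP-1 site (TGANTCA) and TATAAA, which a MEF2 site can contain, were also searched on both strands, so 6 motifs in all, and the stretches printed are a choice among the matches.
Ankrd1, M-CAT, chr19:36120037-36120066, minus strand: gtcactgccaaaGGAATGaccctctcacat
Ankrd1, M-CAT, chr19:36119950-36119979, minus strand: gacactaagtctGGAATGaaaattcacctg
Flnc, M-CAT, chr6:29433140-29433169, plus strand: cgggccgggcggCATTCCtgggaggccggc
Xirp2, MEF2 site, chr2:67445918-67445947, plus strand: agctcagttcCTAAAAATAGgtgctaggtt
Actc1, CArG box, chr2:114052903-114052932, minus strand: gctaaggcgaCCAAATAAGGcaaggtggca
In the 250 bases before the annotated start, Ankrd1 held 2 M-CAT matches, at 210 and 123 bases before it, and both lie within the longer Ankrd1 gene span of GENCODE M21. The Flnc match, at 104 bases, belongs to the second of its 2 annotated starts. The Xirp2 site lay 74 and the Actc1 box 47 bases before the start, and the Actc1 box too lies within the longer GENCODE M21 gene span. Of 32851 promoters of the same length, 12.6% held an M-CAT, 1.47% a CArG box and 2.92% a MEF2 site, so that an M-CAT is common and the other two are less so. E-boxes were in 66.2% of all promoters and in those of Ankrd1, Ankrd2, Csrp3, Xirp2 and Nrap. AP-1 sites were in 6.75% and in that of Xirp2, and TATAAA in 12.4% and in that of Ankrd2. A match describes the letters only.

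Levels of different genes were compared as read counts scaled to library size (CPM) divided by exon length in kilobases. In female controls Myot was the most abundant at 412 CPM per kb, followed by Actc1 at 366, Nrap at 226 and Xirp2 at 175. Flnc stood at 46.5 CPM per kb, Ankrd2 at 43.4, Xirp1 at 20.0 and Csrp3 at 14.6, and Ankrd1 was the least abundant at 2.58. Neighbours in this order overlapped between animals, except Xirp2 and Flnc. In male controls the order was Myot at 418 CPM per kb, Nrap at 272, Xirp2 at 230, Actc1 at 76.6, Flnc at 69.2, Xirp1 at 28.5, Ankrd2 at 27.04, Csrp3 at 7.35 and Ankrd1 at 2.07. There Myot and Nrap, Xirp2 and Actc1, and Flnc and Xirp1 did not overlap, and the other neighbours did. The structural proteins Myot, Nrap and Xirp2 were thus high at rest and the strain sensor Ankrd1 low in both sexes.

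**Figure D1:**
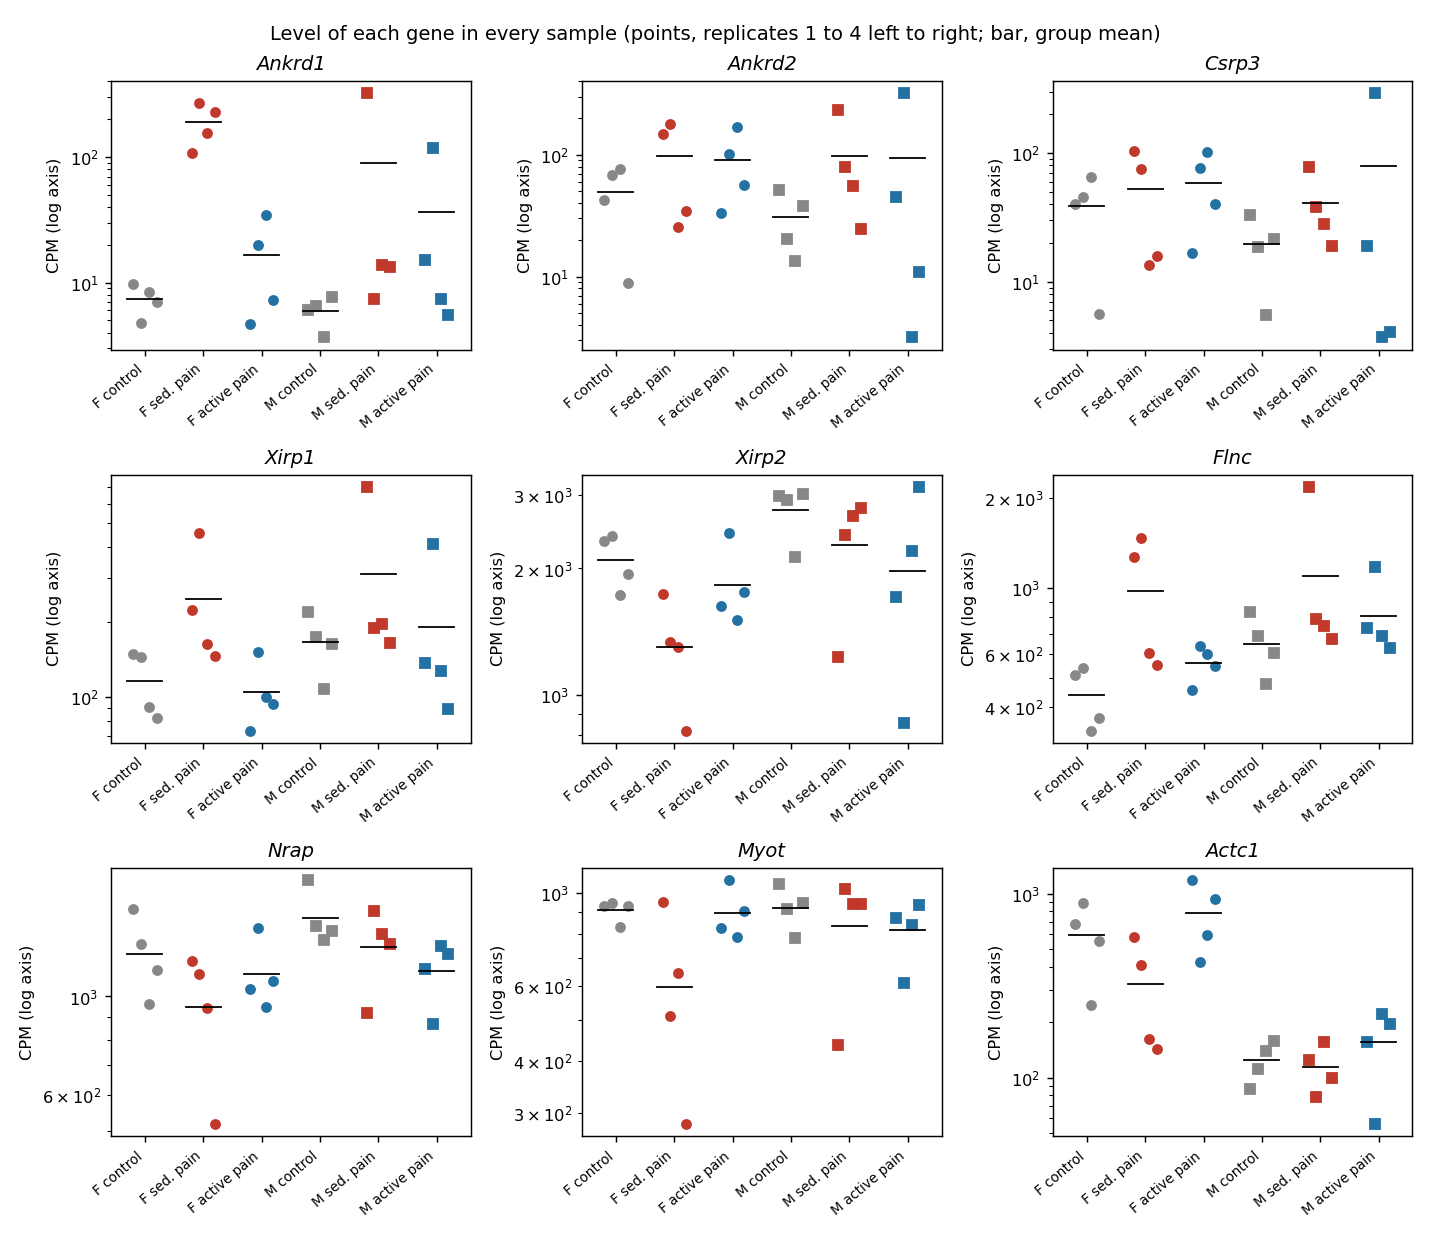
CPM of each of the 9 genes on a log axis in the 24 samples, by group (F, female, circles; M, male, squares; sed., sedentary), with replicates 1 to 4 from left to right and a bar at each group mean. All 4 sedentary pain females lie above all female controls for Ankrd1 and Flnc, whereas 1 sedentary pain male and 1 active pain male stand apart from the rest of their groups for Ankrd1 and Xirp1.

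The ankyrin repeat proteins are bound to titin in the I-band and reach the nucleus under strain. Ankrd1 (minus strand of chromosome 19, 36111961 to 36120099 in GENCODE M21, GRCm38) had 9.66, 4.75, 8.35 and 6.97 CPM in female control replicates 1 to 4. In sedentary pain females it had 108, 270, 156 and 230 CPM. In active pain females it had 4.70, 19.9, 34.8 and 7.26 CPM. Every sedentary pain female lay above every control and every active female, and the active females spread across the control range and above it.

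The rise in sedentary pain females came to 4.66 ± 0.61 on the log2 scale (SE, 4 against 4, edgeR quasi-likelihood test, adjusted p = 0.00251). Of the 9 genes, 4 passed an adjusted p of 0.05 in that comparison, 3 higher and 1 lower, in a comparison in which 33.5% of all genes passed, 19.6% higher and 13.9% lower. The groups did not overlap for 2 of the 9, against 26.3% of all genes. Within library numbers, Ankrd1 was higher by 4.70 in replicates 1 and 2 (adjusted p = 0.0531) and by 4.65 in replicates 3 and 4 (adjusted p = 0.00571). Active against sedentary pain, Ankrd1 fell by 3.49 on the log2 scale (SE 0.57, adjusted p = 0.0328). It was 1 of 2 genes of the 9 that passed there, both lower, where 11.9% of all genes passed, 2.51% higher and 9.41% lower. It was the only one of the 9 without overlap there, against 11.8% of all genes. That difference was -3.93 in replicates 1 and 2 (adjusted p = 0.264) and -3.20 in replicates 3 and 4 (adjusted p = 0.0250), and between -4.18 and -3.22 when samples were left out in turn. The call was lost without active pain replicate 1, 2 or 4 or sedentary pain replicate 3 or 4. In those fits the calls among all genes also went, from 1730 to 3 without sedentary pain replicate 3 and to 0 without each of the others, so the loss was not particular to Ankrd1. Without sedentary pain replicate 1 all-gene calls were 4316. Between active pain and control females the difference was 1.17 ± 0.54 (adjusted p = 0.710).

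In males Ankrd1 had 6.07, 6.54, 3.66 and 7.64 CPM in controls. In sedentary pain males it had 322, 7.46, 13.9 and 13.3 CPM, and in active pain males 15.2, 118, 7.45 and 5.54 CPM. A single animal of each pain group, replicate 1 of the sedentary and replicate 2 of the active, lay within or above the female sedentary pain range, and the other 6 lay between 5.54 and 15.2. The differences from controls were 3.92 ± 1.38 in sedentary pain (adjusted p = 0.410) and 2.60 ± 1.31 in active pain (adjusted p = 0.634). Without the outlying replicate of each group they were 0.97 and 0.66. These values are a description only, since those animals were picked for their high Ankrd1. In replicates 1 and 2 the sedentary pain difference was 4.70 and in replicates 3 and 4 it was 1.28 (adjusted p = 0.647 and 0.399).

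Whether Ankrd1 changed differently in males and females was tested as an interaction. The sedentary pain change of Ankrd1 in males minus that in females was -0.78 ± 1.42 on the log2 scale (adjusted p = 0.858). It was -3.69 with the 2 outlying males left out, given without its p and read as a description only, since those animals were chosen for their high Ankrd1 after the data were seen. Replicates 3 and 4 alone, a split also chosen after the data were seen, hold neither of those 2 males. There the difference was -3.40, likewise given without its p, and 1349 of all genes passed. In replicates 1 and 2 alone it was 0.046 (adjusted p = 0.999997), where no gene passed. The active against sedentary pain change differed by 2.23 ± 1.41 (adjusted p = 0.451), and by 5.17 (adjusted p = 0.0228) without male sedentary pain replicate 1, where 2174 of all genes passed. That replicate is 1 of the 2 outlying males, and the pass was not particular to Ankrd1. None of the 9 genes passed for any of the 3 sex differences with all samples, nor did any of all 15103 genes (0%). At an unadjusted p under 0.05 none of the 9 passed either, where 1446, 307 and 2224 of all genes did for sedentary pain, active pain and active against sedentary pain. DESeq2 called none of the 9 and 15, 3 and 133 of all genes.

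Ankrd1 moved with markers of immune cells across animals. The 8 samples with the most Ankrd1, from 19.9 CPM up, were also the 8 with the highest summed CPM of 6 neutrophil markers, from 25.8 up. The other 16 samples had at most 15.2 CPM of Ankrd1 and at most 12.1 of the neutrophil markers. Of the 8, 7 were also among the 8 highest for 10 macrophage markers, whose sum was 472 to 5593 CPM in sedentary pain females and 99.9 to 216 in female controls. The neutrophil sum was 25.8 to 277 CPM in sedentary pain females and 2.82 to 8.07 in female controls. All 10 macrophage markers and all 6 neutrophil markers rose in sedentary pain females, and 5 of 6 adipocyte markers fell, from a sum of 164 to 3808 CPM in controls to 66.4 to 486 CPM. Their part in the result was not tested. In whole muscle, fewer cells of a type and less RNA per cell cannot be told apart.

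**Figure D2:**
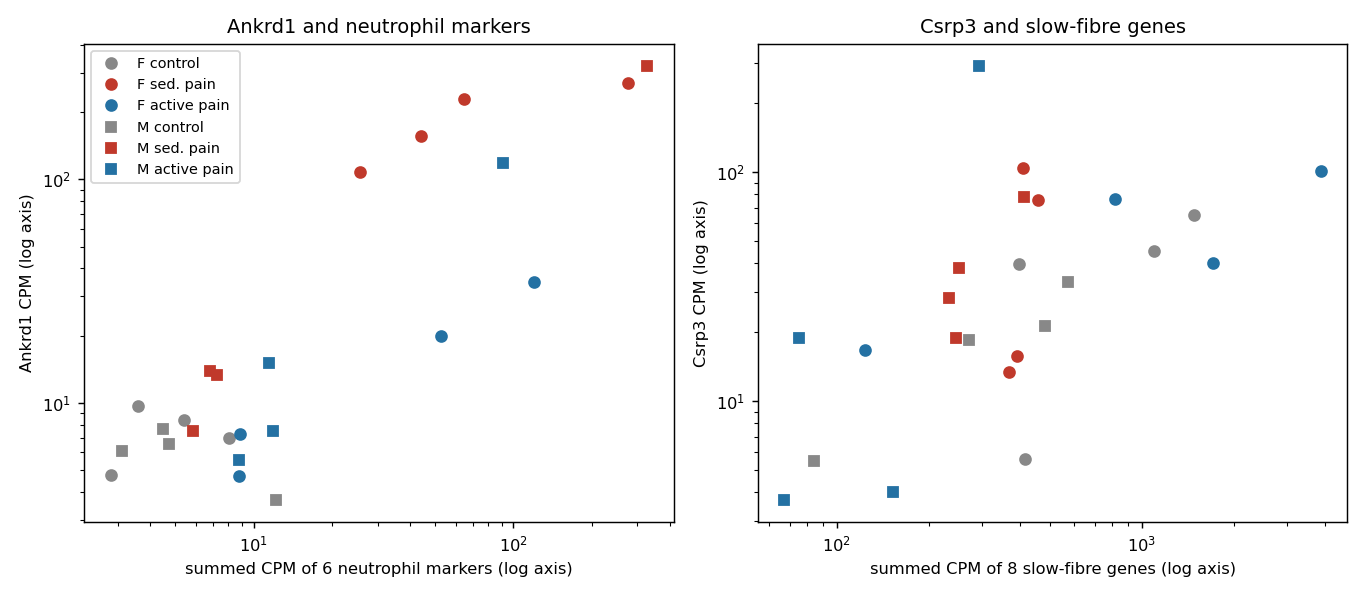
Each point is a sample (colours and shapes by group), with both axes logarithmic. Left, Ankrd1 CPM against the summed CPM of 6 neutrophil markers: the 8 samples above 25.8 on the horizontal axis are the 8 with 19.9 CPM of Ankrd1 or more. Right, Csrp3 CPM against the summed CPM of 8 slow-fibre genes: 5 of the 8 highest samples for one are among the 8 highest for the other.

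Ankrd2 (plus strand of chromosome 19, 42036000 to 42045110) is the relative of Ankrd1 that is found mainly in slow fibres, and Csrp3 (minus strand of chromosome 7, 48830398 to 48848033) encodes muscle LIM protein, a Z-disc stretch sensor. Neither passed the test in any comparison. Ankrd2 had 42.6, 68.8, 77.0 and 8.95 CPM in female controls and 149, 179, 25.5 and 34.5 CPM in sedentary pain females. Csrp3 had 39.9, 45.3, 65.3 and 5.62 CPM in the same controls and 105, 75.6, 13.5 and 15.8 CPM in the same pain animals. For both genes sedentary pain replicates 1 and 2 were above every control and replicates 3 and 4 within the control range. The differences were 0.96 ± 0.75 for Ankrd2 (adjusted p = 0.325) and 0.41 ± 0.80 for Csrp3 (adjusted p = 0.703), and in replicates 3 and 4 alone they were -0.53 and -1.28.

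In males both genes were highest in active pain replicate 2, at 320 CPM of Ankrd2 and 292 CPM of Csrp3. The other 3 active pain males had between 3.18 and 45.1 CPM of Ankrd2 and between 3.69 and 18.9 CPM of Csrp3. The active pain differences from control, 1.62 ± 1.14 and 2.02 ± 1.20 (both adjusted p = 0.634), became -0.63 and -1.14 without that animal. Ankrd2 and Csrp3 went together from animal to animal: they lay on the same side of their own control means in 22 of 24 samples.

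Both are known as slow-fibre genes, and the slow-fibre content of the samples varied widely. The summed CPM of 8 slow-fibre genes was 395 to 1479 in female controls, 367 to 455 in female sedentary pain, 124 to 3860 in female active pain, 84.3 to 571 in male controls, 233 to 412 in male sedentary pain and 67.3 to 293 in male active pain. The slow-fibre sum and these 2 genes ranked the samples alike only in part. Of the 8 samples highest for the sum, 4 were among the 8 highest for Ankrd2 and 5 among those for Csrp3. Male active pain replicate 3 was the lowest of the 24 for all 3 measures, but replicate 2 of that group, the highest for both genes, was only 15th for the slow-fibre sum, at 293 CPM, and female active pain replicate 4, at rank 2 for the sum, was at ranks 10 and 9 for Ankrd2 and Csrp3. With the slow-fibre sum as a term in the fit, the female sedentary pain differences were 1.50 for Ankrd2 and 0.97 for Csrp3 (adjusted p = 0.114 and 0.326).

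The Xin proteins bind actin and filamin, and Xirp1, also called Xin, is known as a marker of fibre damage. Xirp1 (minus strand of chromosome 9, 120013755 to 120023598) had 148, 144, 91.4 and 82.2 CPM in female controls, 224, 457, 163 and 146 CPM in sedentary pain and 73.2, 151, 100 and 93.4 CPM in active pain. The lowest sedentary pain female lay just under the highest control, and active females lay within or just outside the control range. Xirp1 rose by 1.07 ± 0.37 in sedentary pain (adjusted p = 0.0423). The difference was 1.21 in replicates 1 and 2 (adjusted p = 0.191) and 0.82 in replicates 3 and 4 (adjusted p = 0.0206). It fell by 1.22 on the log2 scale from sedentary to active pain (SE 0.37, adjusted p = 0.04999), with differences of -1.60 in replicates 1 and 2 and -0.67 in replicates 3 and 4 (adjusted p = 0.272 and 0.0531).

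Both calls lay close to the threshold. The rise against controls was 0.60 (adjusted p = 0.132) without sedentary pain replicate 2, and the call held in 5 of 12 fits with 1 sample removed. The fall was called in 1 of those 12 fits.

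Xirp2 (plus strand of chromosome 2, 67446002 to 67526614) went the other way. It had 2320, 2387, 1730 and 1942 CPM in female controls, 1734, 1333, 1297 and 819 CPM in sedentary pain and 1626, 2430, 1504 and 1755 CPM in active pain. In sedentary pain 3 of 4 females were below every control. Xirp2 fell by 0.71 on the log2 scale (SE 0.23, adjusted p = 0.0377), with differences of -0.62 in replicates 1 and 2 and -0.81 in replicates 3 and 4 (adjusted p = 0.235 and 0.0732). The call held in 5 of 12 fits with 1 sample removed. With 1 surrogate variable in the fit, a hidden factor estimated from all genes, the difference was 0.035 (adjusted p = 0.979), where 109 in place of 4867 of all genes passed. Between active and sedentary pain females it differed by 0.52 ± 0.23 (adjusted p = 0.151).

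The ratio of the 2 Xin genes set sedentary pain females apart from the other females, and pairs 2 genes already seen to differ in opposite directions. Xirp1 amounted to 5.49% ± 0.96 of Xirp2 in CPM in female controls (SD, n = 4), 19.4% ± 10.2 in sedentary pain and 5.68% ± 0.97 in active pain. Every sedentary pain female, at 12.6% or more, was above every female control and active female, at 6.67% or less, and active and control females overlapped. In males it was 5.97% ± 1.03 in controls, and reached 57.2% in sedentary pain replicate 1 and 48.3% in active pain replicate 2. The other 6 pain males, at 2.86% to 8.02%, overlapped the controls.

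In males the same 2 animals set the Xin values. Xirp1 had 220, 175, 108 and 163 CPM in controls, 702, 190, 197 and 166 CPM in sedentary pain and 137, 413, 127 and 89.8 CPM in active pain. Xirp2 was lowest in those 2 animals, at 1228 CPM in sedentary pain replicate 1 and 856 CPM in active pain replicate 2, while the other 10 males had between 1708 and 3136 CPM. The Xirp1 difference in sedentary pain, 0.93 ± 0.56 (adjusted p = 0.619), was 0.16 without replicate 1.

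Filamin C, the product of Flnc (plus strand of chromosome 6, 29433256 to 29461883), crosslinks actin at the Z-disc and at the membrane and unfolds under load. Flnc had 510, 539, 333 and 368 CPM in female controls, 1267, 1468, 605 and 551 CPM in sedentary pain and 455, 641, 599 and 546 CPM in active pain. All 4 sedentary pain females were above all 4 controls, replicates 1 and 2 by far and replicates 3 and 4 by little. The rise was 1.14 ± 0.31 (adjusted p = 0.0188), with 1.38 in replicates 1 and 2 (adjusted p = 0.0520) and 0.71 in replicates 3 and 4 (adjusted p = 0.0408), and the call held in 11 of 12 fits with 1 sample removed (adjusted p = 0.0529 without control replicate 4). Active against sedentary pain the difference was -0.78 ± 0.31 (adjusted p = 0.108), -1.33 in replicates 1 and 2 and -0.01 in replicates 3 and 4.

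In males Flnc had 831, 693, 476 and 604 CPM in controls and 2178, 787, 747 and 676 CPM in sedentary pain. Replicate 1 stood at 2178 CPM and the other 3 within the control range. The difference was 0.77 ± 0.37 (adjusted p = 0.577), and 0.20 without that animal. Active pain males had 734, 1172, 690 and 632 CPM, a difference from control of 0.31 ± 0.37 (adjusted p = 0.665). Of the 36 pairs of the 9 genes, Xirp1 and Flnc were the closest to each other among those that rose in females, with a mean absolute difference of 0.27 between their log2 CPM, each centred on same-sex controls, over the 24 samples.

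**Figure D3:**
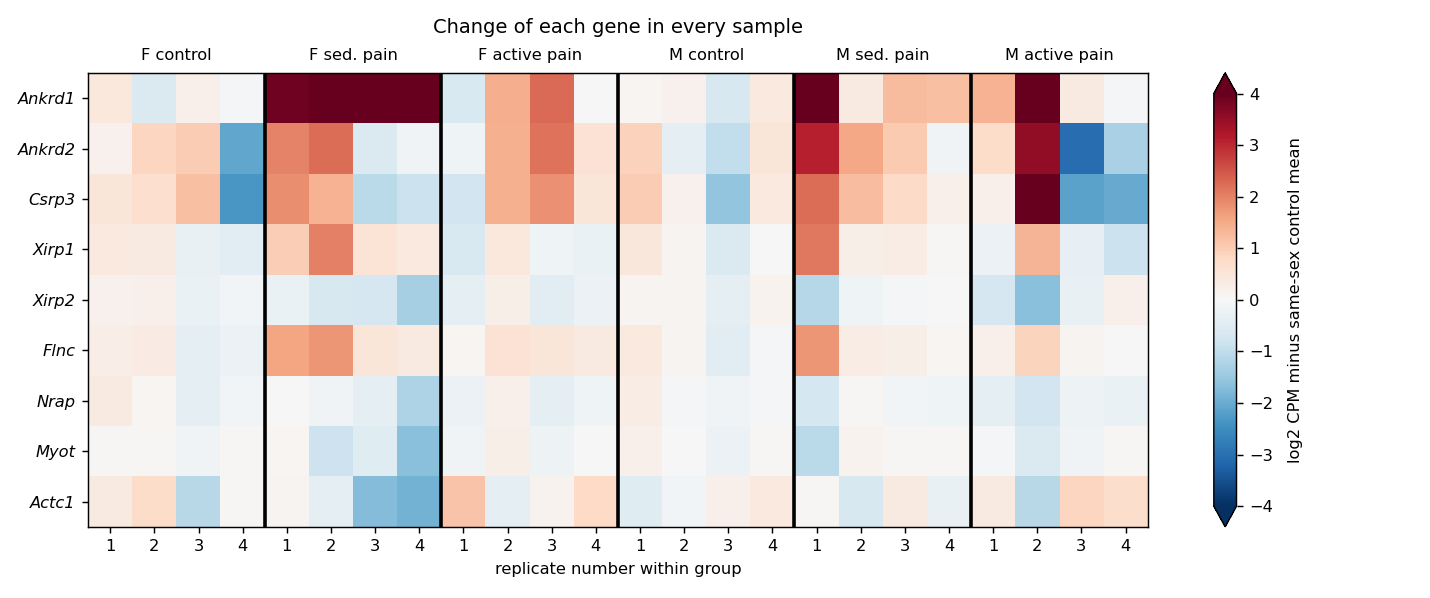
Log2 CPM of each gene in each sample minus its mean over the same-sex controls (red, higher; blue, lower; the colour scale ends at 4 in both directions). The 4 sedentary pain females, male sedentary pain replicate 1 and male active pain replicate 2 are red for Ankrd1, Xirp1 and Flnc and blue for Xirp2, and Ankrd2 and Csrp3 vary within every group.

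Nrap (minus strand of chromosome 19, 56320035 to 56390037), which links actin to the membrane during myofibril assembly, had 1574, 1309, 962 and 1144 CPM in female controls and 1204, 1125, 940 and 516 CPM in sedentary pain. Myotilin, from Myot (plus strand of chromosome 18, 44334074 to 44355724), binds actin, alpha-actinin and filamin C at the Z-disc. Myot had 933, 948, 829 and 932 CPM in female controls and 953, 510, 645 and 283 CPM in sedentary pain. For Myot 3 of the 4 sedentary pain females were below every control and replicate 1 was above them all. Neither difference passed the test, at -0.41 ± 0.26 for Nrap (adjusted p = 0.212) and -0.62 ± 0.29 for Myot (adjusted p = 0.104). Without sedentary pain replicate 1 the Myot difference was -0.93, a description only, since that animal was picked for its high Myot.

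Nrap was the only one of the 9 whose active pain and control males did not overlap, at 868 to 1300 CPM against 1338 to 1825 (10.4% of all genes did not overlap there). Its difference was -0.39 ± 0.18 (adjusted p = 0.634). In male sedentary pain Myot was 437 CPM in replicate 1 and 940 to 1022 CPM in the other 3. Xirp2, Nrap and Myot formed the closest trio of the 9, with mean absolute differences of 0.19 to 0.22 between their centred log2 values.

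**Figure D4:**
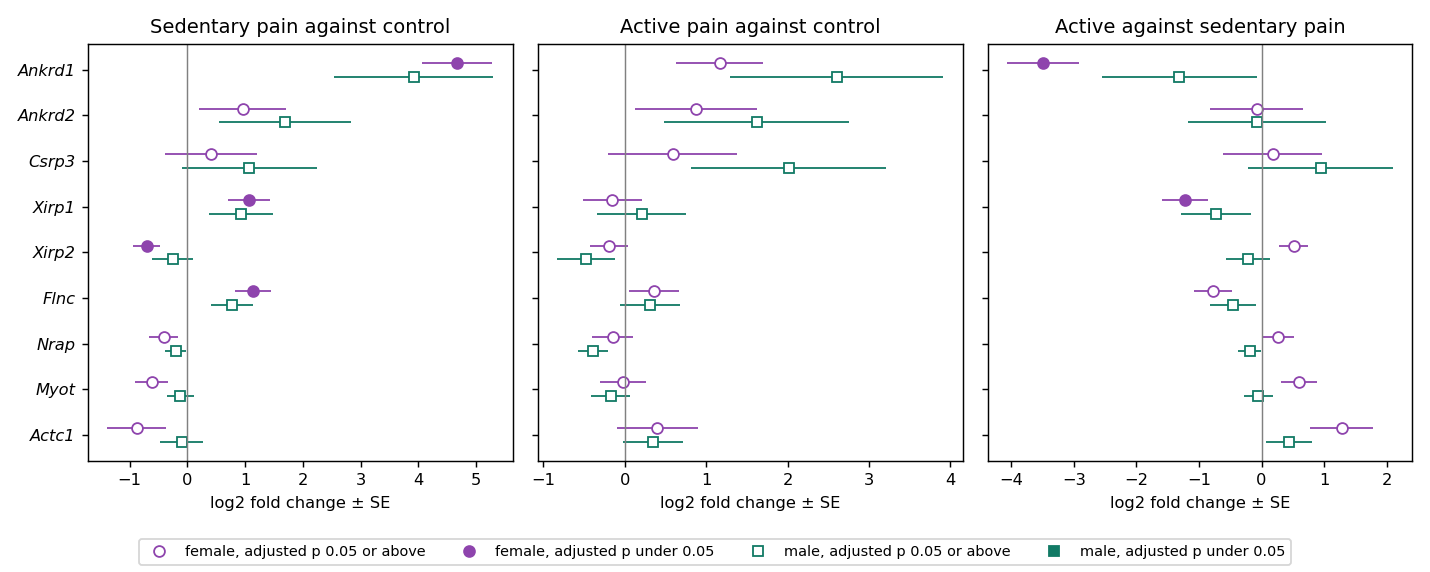
Log2 fold changes with their standard errors for the 9 genes in females (circles) and males (squares), 4 samples against 4, filled where the adjusted p was under 0.05. In sedentary pain females Ankrd1, Xirp1 and Flnc are filled and higher and Xirp2 filled and lower; no male value and no active pain value against control is filled.

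Actc1 (minus strand of chromosome 2, 114047282 to 114053548) encodes cardiac alpha-actin, which skeletal muscle makes during development and in regeneration before Acta1, the adult skeletal alpha-actin, takes over. In controls it had 683, 886, 247 and 552 CPM in females and 87.1, 112, 140 and 157 CPM in males. Every female control was above every male control. The difference was -2.26 ± 0.48 (adjusted p = 0.0106), which made Actc1 the only one of the 9 that passed, in a comparison in which 2.83% of all genes passed and 1.28% did so downward. It was also the only one of the 9 without overlap, where 22.3% of all genes had none. The difference was -3.02 in replicates 1 and 2 (adjusted p = 0.1999), -1.41 in replicates 3 and 4 (adjusted p = 0.0530) and -2.12 without male control replicate 1 (adjusted p = 0.0552).

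Acta1 itself was 33476 ± 6347 CPM in female and 35254 ± 1712 CPM in male controls (SD, n = 4). Actc1 was thus 1.73% ± 0.72 of Acta1 in female and 0.35% ± 0.10 in male controls. The spliced Actc1 and Acta1 transcripts share no stretch of 50 bases in GENCODE M21, the longest being 29 bases. The 8 cardiac markers summed to 0.253 to 5.43 CPM in all samples, and Nppa was at 0 in 18 of the 24. Some other marker lists also had negative medians in that comparison, with sums that overlapped between the sexes. The 6 adipocyte markers had a median difference of -2.29, with 1 called lower, and summed to 164 to 3808 CPM in female and 44.1 to 426 CPM in male controls. The 8 slow-fibre genes had a median of -1.54, with none called, and sums of 395 to 1479 and 84.3 to 571 CPM. With the slow-fibre sum as a term the Actc1 difference was -2.50 (adjusted p = 0.00861); the part of the adipocyte markers was not tested.

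Within females Actc1 had 583, 409, 162 and 144 CPM in sedentary pain and 1182, 422, 596 and 931 CPM in active pain. The sedentary pain difference from control was -0.88 ± 0.50 (adjusted p = 0.181). Active pain females were all above 3 of the 4 sedentary pain females, by 1.28 ± 0.51 (adjusted p = 0.109). It passed in 5 of 24 alternative analyses, among them DESeq2 (1.27, adjusted p = 0.0479), a fit with the replicate number as a block (1.47, adjusted p = 0.0497) and one with the library-number batch, replicates 1 and 2 against 3 and 4, as a term (1.53, adjusted p = 0.0277), and was 0.33 with 1 surrogate variable (adjusted p = 0.957). The difference was 0.66 in replicates 1 and 2 (adjusted p = 0.560) and 2.32 in replicates 3 and 4 (adjusted p = 0.0141). In males Actc1 had 124, 78.3, 156 and 98.9 CPM in sedentary pain and 156, 55.8, 220 and 195 CPM in active pain, groups that overlapped each other and the controls.

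For the comparisons without calls, edgeR passed none of all genes (0%) between active pain and control females, between either pain group and control in males, and between the 2 male pain groups. At an unadjusted p under 0.05 they held 1, 1, 0 and 0 of the 9 genes in the order female active pain, male sedentary pain, male active pain and male active against sedentary pain, and 1020, 1273, 1045 and 121 of all genes. DESeq2 called none of the 9 there and 125, 270, 127 and 0 of all genes. Comparisons within a sex share their samples, so their values are set side by side and not counted as separate evidence.

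Other genes of the same machinery were counted from lists, beside the 19.6% of all genes that were higher and the 13.9% that were lower in sedentary pain females. The lists were chosen with earlier results of these data known, so their counts are a description and not a test. Of 13 genes of filamin turnover by chaperones, 6 rose and none fell. The small heat shock proteins Cryab (1.69 ± 0.22, adjusted p = 0.00251), Hspb8 (1.15 ± 0.16, adjusted p = 0.00260) and Hspb1 (1.72 ± 0.35, adjusted p = 0.00550) rose, as did Hspa8 (0.68 ± 0.14, adjusted p = 0.00639), the constitutive Hsc70. The median change of the 13 was 0.45, against -0.02 for all genes.

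Genes of membrane repair rose in 9 of the 13 that were tested and fell in none, with a median of 0.67. They included the annexins Anxa2 (2.31 ± 0.46) and Anxa4 (2.07 ± 0.29), the dysferlin relative Myof (2.14 ± 0.50) and Ehd1 (1.18 ± 0.27), which shapes membranes. Of 18 genes of the costamere, the link from Z-disc to membrane, 7 rose and 3 fell: Tln1 (1.20 ± 0.20) and Flna (1.80 ± 0.33) were higher and Tns1 (-1.03 ± 0.19) and Lims2 (-0.81 ± 0.16) lower. The share of costamere genes that fell was close to the 13.9% of all genes. Annexins, talin and filamin A are also made by leukocytes, whose markers rose in the same animals, and their part in these counts was not tested.

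Of 27 structural Z-disc genes 9 fell and 2 rose, with a median of -0.53, where 13.9% of all genes were lower and 19.6% higher. The fast-fibre markers had a similar median of -0.43 in that comparison, and 1 of the 10 fell. Desmin (Des, 1.03 ± 0.23), the intermediate filament around the Z-disc, and Pdlim3 (0.71 ± 0.15), an alpha-actinin partner, rose. Palld (-0.85 ± 0.21), an actin scaffold, and the protease Capn3 (-0.72 ± 0.20) fell. Those fast-fibre markers, which check the tissue label, summed to 101392 to 199403 CPM in these animals and 154572 to 225080 CPM in female controls, and their part in the Z-disc counts was not tested.

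Of 16 genes of YAP and SRF signalling, 2 rose and 1 fell: Egr1 (1.46 ± 0.41) and Tead4 (0.67 ± 0.23) were higher and Tead1 (-1.22 ± 0.27) lower. Of 11 developmental sarcomere and myogenic genes 1 rose, the myogenic factor Myog (1.36 ± 0.26). In both lists the shares that rose and fell were below those of all genes, 19.6% and 13.9%. Active against sedentary pain, 3 of 13 chaperone, 5 of 13 membrane repair, 4 of 18 costamere and 2 of 16 YAP and SRF genes were lower, 1 costamere gene was higher, and no Z-disc or developmental gene passed, where 9.41% of all genes were lower and 2.51% higher. Within males no gene of the 6 lists passed, but neither did any of all genes (0%), so that count says nothing about the lists.

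**Figure D5:**
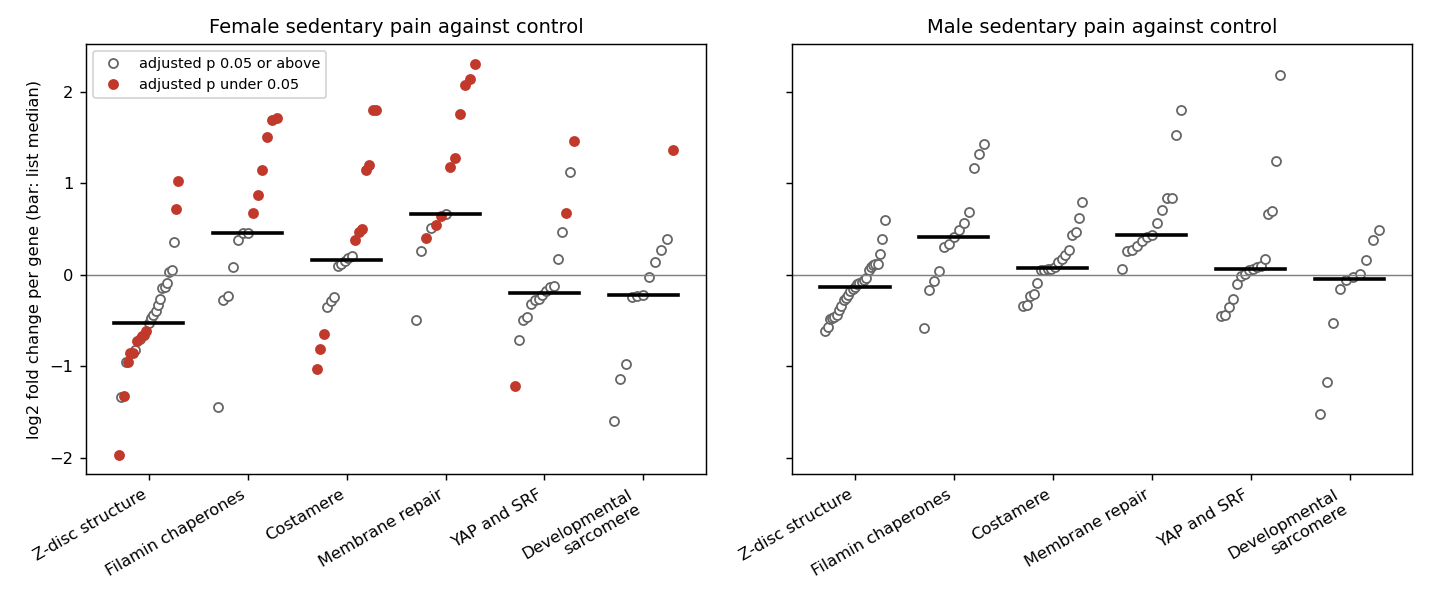
Log2 fold change of each tested gene of 6 lists in sedentary pain against control (left, females; right, males), filled where the adjusted p was under 0.05, with a bar at each list's median. In females membrane repair (median 0.67) and filamin chaperones (median 0.45) lie mostly above 0 and Z-disc structure (median -0.53) mostly below; no male point is filled.

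The genes most like each of the 9 were taken as those with the smallest mean absolute difference between centred log2 values over the 24 samples, a description with no test. For Ankrd1 they were Lat2, Socs3 and S100a4, each at 0.61. Klhl40, which encodes a thin filament stabiliser of the sarcomere, was the closest to Flnc at 0.20 and the third closest to Xirp1 at 0.33, after Ppp1r15a at 0.31 and Nes, the intermediate filament nestin, at 0.32. Hspb7, a muscle small heat shock protein that binds filamin C, and Lmcd1 were among the 3 closest to both Ankrd2 (0.68 and 0.73) and Csrp3 (0.72 and 0.71). The closest to Xirp2 was Bmpr2 at 0.09, to Nrap Dyrk1a at 0.11, to Myot Zfp788 at 0.09 and to Actc1 Gm12286, annotated as a processed pseudogene, at 0.40.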

How the data were processed

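RNA of 24 muscle samples was read as paired ends of 100 bases from stranded libraries, per the labels' protocols. The deposited files hold raw read counts per gene, without normalization; the submitters' processing notes name HISAT2 2.1.0, Salmon 0.9.1, featureCounts and DESeq2 1.24.0 and the builds mm10 and GRCm38.p6, and give no roles. Annotation version and use of strand are not given in the sources used here. Total counts were 17612139 to 34039699 per sample, and the 9 genes had 93 to 95716 counts each. Groups came from the labels. Nothing states more about the replicates than separate samples, so p-values measure the spread between these samples.

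Counts were scaled by TMM, filtered with filterByExpr (minimum count 10) and tested two-sided with edgeR 4.0.16 (robust quasi-likelihood) in R 4.3.3, each sex on its 12 samples, sex differences on all 24. P-values were adjusted by Benjamini-Hochberg over all genes tested (14511 female, 14404 male, 15103 both), and called under 0.05. The fits were tested on data simulated from the male samples, with the same spread setting for every gene and no outlying animals. That test therefore does not cover data with outlying animals. CPM used TMM factors over 24 samples, log2 CPM a prior count of 2. Positions and exon lengths were from GENCODE M21. The 9 genes are always named; other lists gave counts and up to 4 genes with the smallest adjusted p. Genes and lists were chosen with earlier results of these data known.

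Alternatives were RLE scaling, DESeq2 1.42.0, other filters, no robust step, other sample sets, a replicate block, a library-number batch (replicates 1 and 2 against 3 and 4), 1 surrogate variable (sva 3.50.0) and leaving out each sample. Chosen after seeing the data were replicates 1 and 2 or 3 and 4 alone, a slow-fibre term, and leaving out 2 male samples.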

Additional observations from a re-analysis of the deposited data

Results flagged for a closer look

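In 10 of the 54 combinations of gene and group, 1 sample stood far from the other 3 by Dixon's criterion for 4 samples. A rate of 1 in 20, or 2.7, would hold for independent, normally distributed values. These were unlogged CPM of genes measured in the same animals, so 10 against 2.7 is not a test of chance. Male sedentary pain replicate 1 was the highest of its group for Ankrd1 (322 CPM), Xirp1 (702 CPM) and Flnc (2178 CPM) and the lowest for Myot (437 CPM). Male active pain replicate 2 was the highest of its group for Ankrd1 (118 CPM), Ankrd2 (320 CPM), Csrp3 (292 CPM) and Xirp1 (413 CPM). The same 2 animals had the highest summed neutrophil markers of their groups, at 326 and 91.6 CPM, against at most 11.8 CPM in the other 6 pain males; the part of that in the result was not tested. In controls, male replicate 3 had the lowest Xirp2 (2130 CPM) and female replicate 3 the lowest Myot (829 CPM).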

How the results depend on the processing

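With all samples 4 of the 9 genes were called in sedentary pain against control females. The count was 2 with 1 surrogate variable, with only the 8 samples compared, with all 24 samples in 1 fit and with the slow-fibre term. All-gene calls in those fits were 109, 2847, 5265 and 3932, against 4867 in the main fit. In replicates 1 and 2 only the count was 0, with 238 of all genes called. It was 1 to 5 when a sample was left out, with 2486 to 6674 of all genes. Active against sedentary pain in females 2 were called: 1 with RLE scaling, without a filter on low counts, with all 24 samples or with the slow-fibre term. All-gene calls in those fits were 1770, 174, 2378 and 715. The count was 0 with 1 surrogate variable, with only the 8 samples or in replicates 1 and 2. None of all genes passed in those 3 fits, so 0 there says nothing about the 9. It was 0 to 4 when a sample was left out. With DESeq2, the library-number batch and the replicate block Actc1 also passed in active against sedentary pain females, at 1.27, 1.53 and 1.47. For the sex difference in sedentary pain, replicates 3 and 4 alone (1349 of all genes called) and the fit without the 2 outlying males are not counted as calls. Both fits leave out those 2 males and were chosen after the data were seen. The count for the sex difference in active against sedentary pain was 0 to 1 (all genes 0 to 2174), and that for controls 0 to 1 when a sample was left out and 0 in replicates 1 and 2.

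With the replicate block 4 genes were called in female sedentary pain against control and 3 in active against sedentary pain, and all-gene counts went from 4867 to 3739 and from 1730 to 1629. Residuals of same-numbered samples correlated between -0.65 and 0.59, and in no comparison were all 4 above 0.1, though 3 of 4 were in 2 of them, with a lowest of 0.0639 in active pain against control females. The numbers were therefore not taken as pairs. Same-numbered samples do share a range of library numbers, 2 to 20 for replicates 1 and 2 and 25 to 45 for replicates 3 and 4. The block changed no other call among the 9 genes. All-gene counts in the same 2 comparisons were 109 and 0 with 1 surrogate variable, and those in active against sedentary pain were 3010 with DESeq2, 2745 with the library-number batch, 174 without a filter and 0 to 4316 when a sample was left out.

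With 1 surrogate variable, values of female sedentary pain against control changed sign for Xirp2 (0.035), Nrap (0.41), Myot (0.19) and Actc1 (0.46), for Xirp2 in active against sedentary pain (-0.090), for Xirp1 in sedentary pain males (-0.20), and for Ankrd1 (-0.44), Ankrd2 (-0.93) and Csrp3 (-0.97) in active pain males. In replicates 3 and 4 alone they did for Ankrd2 (-0.53) and Csrp3 (-1.28) in female sedentary pain and for Ankrd2 (-1.87) and Csrp3 (-1.79) in male active pain, and without the 2 outlying males for Ankrd2 (-0.63) and Csrp3 (-1.14). In replicates 1 and 2 alone the sex difference of Ankrd1 in sedentary pain was 0.046. Leaving out a sample, Csrp3 ranged from -0.16 to 0.78 in female sedentary pain, and in male active pain Ankrd2 from -0.63 to 2.04 and Csrp3 from -1.14 to 2.43. The causes were not tested. Of 640 values, from a choice of pairs of gene and comparison and not from all pairs, 554 kept direction and side of the threshold. A gene that was not called and stayed so counts as kept. The female sedentary pain calls against control were kept in 23 of 24 alternatives for Ankrd1, 22 for Flnc, 11 for Xirp1 and 11 for Xirp2. Those of active against sedentary pain were kept in 16 of 24 for Ankrd1 and 5 for Xirp1, and that of Actc1 between controls in 32 of 35.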
